A study of Mus musculus with 16 samples.

Results

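The proteasome subunit genes were described in single cells of the LSK (Lin-Sca1+Kit+) fraction of mouse bone marrow, which holds the haematopoietic stem cells and multipotent progenitors. The members were all gene entries whose symbol starts with Psma, Psmb, Psmc or Psmd followed by a number, without Psmb8, Psmb9 and the entries whose symbol holds -ps. This gave 38 of the 52542 gene entries other than spike-ins, of which 17 encode parts of the proteolytic core and 20 parts of the regulatory cap or its assembly factors. Psmc3ip, a meiotic recombination factor, shares the symbol start but is no subunit of the complex. Psmb10, Psma8 and Psmb11 also met the rule and are not constitutive, being the interferon-inducible, the testis and the thymus forms of core subunits.

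The cells came from C57BL/6J mice, per the labels. Regnase-1-/-Regnase-3-/- fetal liver cells carrying CD45.2 and control fetal liver cells carrying CD45.1 had been mixed in equal parts and given to lethally irradiated CD45.1/CD45.2 hosts. LSK cells were sorted singly into wells 4 weeks later and their mRNA 3' ends were counted by MARS-seq, a plate method that tags each molecule with a unique molecular identifier (UMI). All 16 libraries stand in a single labelled group, and neither library nor cell carries a genotype or a mouse in the sources used here, so no knockout against control comparison was made. Which donor genotypes a library holds, and in what shares, is therefore unknown, as is whether host cells remained. Neither the age of the animals nor which libraries share animals is stated in the labels.

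Cells were wells not listed as empty that held at least 500 UMIs, with under 20% of them mitochondrial. They numbered 5157 and held 10437310 UMIs, at 295 to 345 cells and 500092 to 810096 UMIs per library. The well table put LSK libraries 2 to 10 in sequencing batch SB341 and LSK libraries 11 to 16 in SB343, and had no entry for LSK library 1. No well name was shared between libraries. Kit and Ly6a, the transcripts of the 2 sort markers, were at 301 to 463 CPM together (a gene's UMIs scaled to the same total in each library). Of the markers of mature and other cells, Cd3e, Cd3d, Cd79a, Lepr, Cdh5 and Ltf had no UMI in any kept cell, while Lyz2 had 1861, the haemoglobin gene Hbb-bt 1573, Cd79b 398, Hba-a1 103, and S100a8 and Col1a2 22 each.

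The proteasome degrades proteins that carry ubiquitin chains. Its barrel-shaped core is built of rings of alpha subunits, which gate the entrance, and rings of beta subunits, of which Psmb5, Psmb6 and Psmb7 carry the active sites. The cap recognises and unfolds the substrate: its base holds the ATPases Psmc1 to Psmc6 and the scaffold and receptor subunits Psmd1, Psmd2 and Psmd4, and its lid holds the deubiquitinase Psmd14 and structural subunits. Psmd5, Psmd9 and Psmd10 are chaperones known to help assemble the base and are not in the finished particle. In cells of the immune system, and on interferon, Psmb8, Psmb9 and Psmb10 can replace Psmb5, Psmb6 and Psmb7 to give the immunoproteasome. Blood progenitors depend on proteasomes for the turnover of cell cycle regulators and transcription factors.

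The members held 53091 UMIs in the kept cells, 0.509% of the total. Of the 38 members, 37 had at least 1 UMI and 36 had at least 250. Psmb11 had none, and 3 UMIs is the count that a value of 0 allows at this depth. The last part of its transcript is at least 95% identical over at least 100 bases to 10 other entries, Mrpl35 with 839 UMIs and Tmem263 with 442 among them, and how such molecules were assigned was not tested. Psma8 had 65 UMIs in 52 cells, and its 16 library levels reached from 0 to 21.0 CPM around a median of 5.76. All constitutive core and cap genes were thus measured, at widely different levels. A UMI stands for 1 mRNA 3' end, so levels in CPM were not divided by length.

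Among the core genes Psmb1, a beta subunit without an active site, was the most abundant, at 291, 377 and 465 CPM (lowest, median and highest of the 16 libraries). Psma7, an alpha subunit, followed at 299, 365 and 502 CPM. Psmb4, another such beta subunit, had 212, 270 and 358 CPM. Psmb1 and Psma7 overlapped over most of their ranges, and both lay above Psmb4 in median. The other alpha genes Psma2, Psma6, Psma1, Psma5 and Psma4 had medians of 266, 258, 250.2, 209 and 205 CPM, differences within their spread over libraries. Of the beta genes that carry active sites, Psmb6 had a median of 207, Psmb7 of 171 and Psmb5 of 82.4 CPM. Psmb5 ran from 44.3 to 133 CPM and its highest library lay below the lowest library of Psmb7 and of Psmb6. With the UMIs of near-identical pseudogene entries (given below) added, Psmb5 reached 144.2 CPM. That was above the lowest library of Psmb7, at 143.8, and below that of Psmb6, at 173. Psmb2 and Psmb3, the remaining beta genes, had medians of 135 and 112 CPM.

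**Figure D1:**
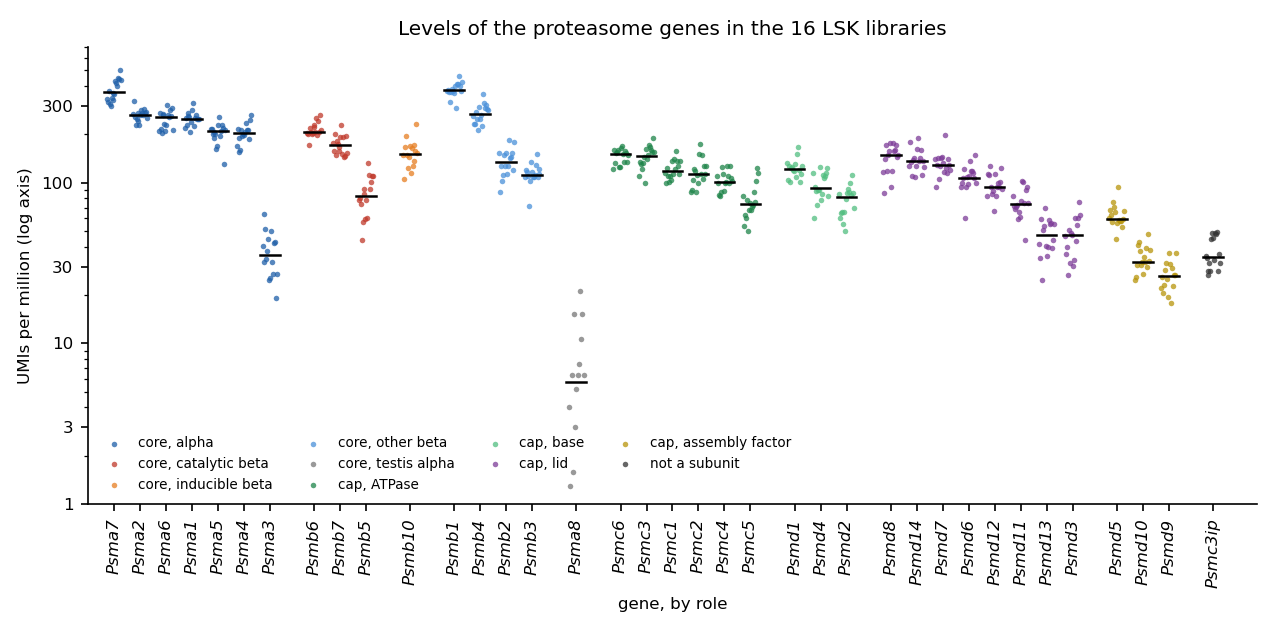
Each dot gives a gene's CPM in 1 of the 16 LSK libraries on a log axis, with genes sorted by role and a bar at the median. Psma7 and Psmb1 stand at the top of the core genes, the cap genes lie between 26.3 and 152 in median, and Psma3 lies apart at 35.6. Libraries at 0 (Psma8) are not drawn, and Psmb11, at 0 in all libraries, is left out.

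Psma3, an alpha subunit, stood apart from the other constitutive alpha genes with 19.1, 35.6 and 64.0 CPM, or 380 UMIs in all. The processed pseudogene entry Gm13835, which is 100% identical to the last part of the Psma3 transcript over 390 bases, held 964 UMIs. With the UMIs of its near-identical entries added, Psma3 had 87.3, 132 and 193 CPM. How the authors' counting shared molecules between the gene and these entries was not tested, so the level of Psma3 is uncertain. Entries at least 95% identical over at least 100 bases were also found, beside those of Psmb11, for Psma4, Psma5, Psmb3, Psmb5, Psmc1, Psmd11 and Psmd2, holding 22 to 316 UMIs each in sum. Adding them moved Psmb3 to a median of 138 CPM and the other 6 by less than 1 SD over libraries. Psmb7, Psmc3 and Psmc3ip overlap Nek6, Slc39a13 and Mlx on the opposite strand at their 3' ends, and since the use of strand is not given, part of their UMIs could belong to those genes.

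The cap genes lay lower than most constitutive core genes, with medians from 26.3 to 152 CPM. The ATPase Psmc6 had 121, 152 and 170 CPM, the lid subunit Psmd8 86.0, 149 and 177, and the ATPase Psmc3 100.03, 147 and 191. These 3 most abundant cap genes did not differ beyond their spread. Psmc1, Psmc2, Psmc4 and Psmc5 had medians of 118, 113, 102 and 73.8 CPM, so the medians of the 6 ATPases, which stand in equal number in the particle, ran from 73.8 to 152. In the base, Psmd1 had a median of 122, Psmd4 of 92.2 and Psmd2 of 81.6 CPM. The lid genes after Psmd8 ran from Psmd14 at 137 and Psmd7 at 129, through Psmd6 at 108, Psmd12 at 94.6 and Psmd11 at 73.7, to Psmd13 at 47.4 and Psmd3 at 47.0. Of the assembly factors Psmd5 was at 59.6, Psmd10 at 32.2 and Psmd9 at 26.3 CPM.

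Summed over its 17 genes, the core had 2835, 3058 and 3451 CPM (lowest, median and highest library). The 20 cap genes together had 1698, 1887 and 2160 CPM. The ratio of core to cap was 1.56, 1.62 and 1.78, so the core held more UMIs in 16 of 16 libraries. The SD over the libraries was 209 CPM for the core and 146 CPM for the cap. Within SB341 the core ran from 2835 to 3268 CPM with a median of 2966, and within SB343 from 3260 to 3451 with a median of 3339. The cap had medians of 1833 in SB341 and 2097 in SB343, with ranges of 1698 to 2069 and 1959 to 2160. The 2 batches barely overlapped for the core, and sequencing batch cannot be told apart from any other difference between the libraries, such as the animals or the share of each genotype. Cell composition differed between the batches and also within SB341. SB343 libraries held 91 to 132 granule-gated and 29 to 38 lymphoid-gated cells (gates on lineage transcripts, defined further on). SB341 libraries held 31 to 80 and 36 to 91. Of these, libraries 2 to 8 held 31 to 55 granule-gated and 50 to 91 lymphoid-gated cells. Libraries 9 and 10 held 80 and 69 granule-gated, and 36 and 47 lymphoid-gated cells. Within granule-gated cells the core had medians of 3399 CPM in SB343 and 3066 in SB341, and within lymphoid-gated cells 3178 and 2897. The members whose median within SB343 lay over 1 SD from that of all libraries were Psma7, Psmb5 and Psmc5. The median of Psma7 was 338 in SB341 and 440 in SB343, that of Psmb5 73.5 and 111, and that of Psmc5 68.0 and 95.3 CPM.

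**Figure D2:**
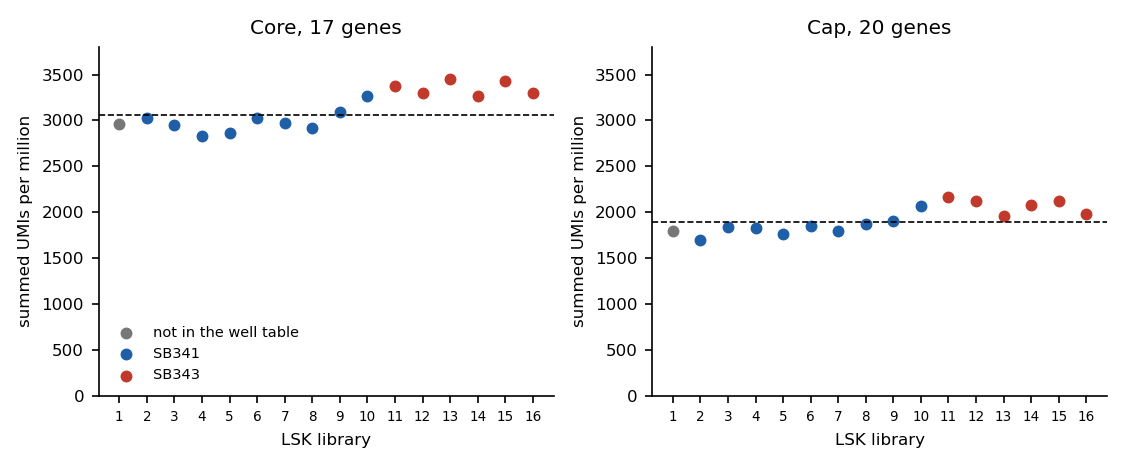
Summed CPM of the 17 core genes (left) and the 20 cap genes (right) in each LSK library, coloured by sequencing batch, with a dashed line at the median of 16 libraries. LSK libraries 11 to 16, of SB343, lie above both medians.

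How far a gene's count varied between libraries was set against counting error by the chi-square of its UMIs over the 16 libraries per degree of freedom, where 1 is counting error alone. Over the 36 members with at least 250 UMIs the median was 2.24 and the range 0.764 to 5.54, beside a median of 2.0 over all 6062 genes with at least 250 UMIs. Psma7 had the highest value among the members, and Psmd10 the lowest, Psmd9 being next at 0.801. Because molecules come in cells, values above 1 also arise without any difference between samples. The members' median lay near that of all genes. This measure rises with a gene's UMIs at the same relative spread, and genes were not matched for abundance. It therefore does not show that members vary as much as other genes of like level.

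Between cells, the variation of thinned counts lay above counting error, for which the variance equals the mean. With each of the 5157 cells thinned to 500 UMIs, a cell held 1.53 core UMIs on average with a variance 1.16 times the mean. For the cap it was 0.918 UMIs with a variance 1.13 times the mean. Thinning to so few UMIs moves these ratios toward 1, so they do not show that cells hardly differ. At this depth 75.5% of cells had a core UMI and 57.9% a cap UMI, against 94.7% and 86.0% before thinning. Cells with more UMIs had somewhat higher levels: from the lowest to the highest quartile of cells by depth in each library, whose median depths were 751, 1269, 1969 and 3627 UMIs, the core had medians of 2883, 2986, 3164 and 3180 CPM. The cap had medians of 1599, 1756, 1907 and 1963 CPM over the same quartiles. The mitochondrial share of all UMIs in a quartile was 11.9%, 11.3%, 10.7% and 9.96%. Mitochondrial UMIs enter the same total, and their part in the change was not tested.

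The inducible catalytic genes were abundant beside the constitutive ones. Psmb8, the inducible counterpart of Psmb5, had 338, 502 and 580 CPM, and Psmb5 44.3, 82.4 and 133. Psmb8 thus held 5145 UMIs and Psmb5 898, and Psmb8 made up 85.1% of the pair (95% Wilson interval 84.2% to 86.0%) and was the higher in 16 of 16 libraries. Adding the near-identical entries of Psmb5 raised its median only to 98.2 CPM. Psmb9 and Psmb6, the pair of the caspase-like site, were level with 2285 and 2237 UMIs, and Psmb9 was the higher in 8 of 16 libraries. Psmb10 and Psmb7, the pair of the trypsin-like site, had 1602 and 1812 UMIs, with Psmb10 the higher in 4 of 16 libraries. In monocyte and dendritic-gated cells Psmb8 made up 88.6% (84.3% to 91.9%) of its pair and Psmb10 60.6% (52.1% to 68.5%) of its pair, the second from 80 and 52 UMIs of Psmb10 and Psmb7. The intervals cover counting error only, and mRNA shares do not measure which subunit sits in the particle.

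**Figure D3:**
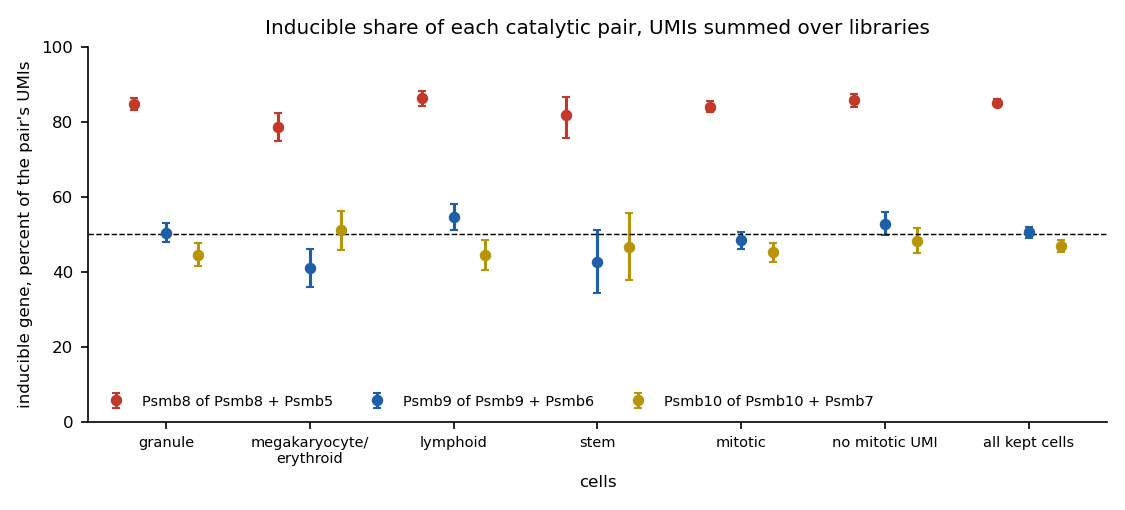
Share of the inducible gene in the UMIs of each catalytic pair, summed over libraries, by gated cells, with 95% Wilson intervals (counting error only) and a dashed line at 50%. The share of Psmb8 lies between 78.8% and 86.4% in all gates drawn, and the share of Psmb9 in megakaryocyte/erythroid-gated cells, at 40.9%, has an interval below the line.

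To follow the members along the blood lineages, cells were gated on short lists of lineage transcripts: a cell needed UMIs of at least 2 different genes of a list and more than of any other list. This gave 1177 granule-gated cells (Mpo, Elane, Prtn3 and other granule genes), 811 lymphoid-gated cells (Dntt, Flt3, Satb1 and others), 311 megakaryocyte/erythroid-gated cells (Pf4, Gata1, Car1, Apoe and others), 209 monocyte and dendritic-gated cells and 189 stem-gated cells (Hlf, Mecom, Mllt3 and others). UMIs were summed per library and gate where at least 10 cells were present, and sums from the same library were compared as pairs with edgeR's quasi-likelihood F test, p-values being adjusted over all tested genes. Since gating used the cells' own transcripts, any gene that covaries with a gate gene differs in part by construction, which makes these p-values too small to an extent that is not known. The spread they rest on is that of libraries, which may be technical replicates.

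In granule-gated cells the core had 2778, 3165 and 3498 CPM and in megakaryocyte/erythroid-gated cells 2553, 3424 and 4454. Lymphoid-gated cells had 2480, 2984 and 3502 CPM of the core. In 10 libraries each, monocyte and dendritic-gated cells had 2635, 2857 and 4113 and stem-gated cells 2168, 2709 and 3642. The cap had medians of 1958 CPM in granule-gated, 2419 in megakaryocyte/erythroid-gated, 1830 in lymphoid-gated, 1778 in monocyte and dendritic-gated and 1825 in stem-gated cells. The ranges of all gates overlapped for both sums. The megakaryocyte/erythroid gate had the highest median of both.

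Against stem-gated cells, no member passed the test in any of the 3 lineages. These 3 comparisons share the stem-gated sums, which held 6 to 18 cells per library, of which 10 libraries had enough. In granule-gated against stem-gated cells 0 of 28 tested members were called higher and 0 lower, where 2.25% and 0.626% of all 2398 tested genes were, and 20 members lay above 0, where 58.6% of all genes did; 2 members (Psmb4 and Psma7) had an unadjusted p under 0.05 in edgeR, and DESeq2 called 0. In lymphoid-gated against stem-gated cells it was 0 of 23 in each direction, beside 2.47% and 1.51% of 1661 genes, with 13 above 0 beside 58.4% of all genes, 1 member under 0.05 unadjusted and 0 by DESeq2. In megakaryocyte/erythroid-gated against stem-gated cells it was 0 of 11 in each direction, beside 3.43% and 4.82% of 788 genes, with 8 above 0 beside 51% of all genes, 1 member under 0.05 unadjusted and 0 by DESeq2. Psmb4 was that member in both, at log2 fold changes of 0.52 ± 0.27 and 0.72 ± 0.29 (SE), and at 0.66 ± 0.25 in granule-gated cells, with edgeR adjusted p of 0.353, 0.110 and 0.153. Its level was 254, 268 and 362 CPM in granule-gated cells, against 0, 177 and 454 in stem-gated cells, so the groups overlapped. These tests could not see moderate changes: in the granule comparison the members' standard errors had a median of 0.33 on the log2 scale. Scaling matters here, since with RLE size factors the median of all genes moved by -0.16 and that of the members was -0.02 in place of 0.15. Of the genes of the pathway list given below, 20, 15 and 11 were tested in these comparisons and 0 were called in each.

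Granule-gated and lymphoid-gated cells, the 2 most numerous lineages, could be compared in 16 libraries. None of 34 tested members was called higher or lower, where 2.12% and 2.43% of 4819 genes were; 3 members, Psma7, Psmc2 and Psmc3, had an unadjusted p under 0.05 in edgeR, and DESeq2 called 0. Psma7 had 281, 415 and 576 CPM in granule-gated cells, against 246, 340 and 537 in lymphoid-gated cells, and was higher in 11 of 16 libraries. Its log2 fold change was 0.23 ± 0.09 (SE) with an adjusted p of 0.152. Over the 34 members the median log2 fold change was 0.12, beside 0.01 over all tested genes, and 27 members lay above 0, where 52% of all genes did. This median was 0.08 to 0.12 with single libraries left out. In cells of 1000 to 4000 UMIs it was 0.06, with 19 of 31 members above 0. With cells thinned to 500 UMIs it was -0.02, with 3 of 7 above 0. Granule-gated cells had a median depth of 2175 UMIs and lymphoid-gated cells of 1988, and the part of depth was not tested. For 26 of the 34 members the 95% interval stayed within 1.5-fold in either direction, and for all 34 within 2-fold. The summed core was higher in granule-gated cells in 13 of 16 libraries and the cap in 11, by medians of 0.08 and 0.09 on the log2 scale.

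Of the genes that work with the proteasome, a list of 33 symbols (31 in the files: activators, assembly factors, cap-bound proteins, ubiquitin genes, shuttles and others) gave 1 higher and 0 lower among 26 tested in this comparison. Over all 4819 tested genes 2.12% were higher and 2.43% lower. Uchl5, a deubiquitinase bound to the cap, had 148, 231 and 366 CPM in granule-gated cells, against 104, 157 and 276 in lymphoid-gated cells. The groups overlapped, and Uchl5 was higher in 13 of 16 libraries, with a log2 fold change of 0.50 ± 0.12 (SE) and an edgeR adjusted p of 0.00385. Without LSK library 3 the log2 fold change was 0.37 and the adjusted p 0.0867. DESeq2 gave an adjusted p of 0.0535, and within SB341 and within SB343 the adjusted p was 0.103 and 0.338 at log2 fold changes of 0.52 and 0.45.

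Megakaryocyte/erythroid-gated cells were set against lymphoid-gated cells in 16 libraries, an unplanned comparison added after the numbers of gated cells were seen. The first of these gates had the highest median cap level of all gates. A higher cap in this comparison is therefore in part given by the choice of gates. The cap had 1776, 2419 and 3049 CPM in megakaryocyte/erythroid-gated cells, against 1526, 1830 and 2161 in lymphoid-gated cells. It was higher in 14 of 16 libraries, with a median log2 difference of 0.50. For the core the values were 2553, 3424 and 4454 CPM, against 2480, 2984 and 3502, higher in 13 of 16 libraries by a median of 0.13. The ranges overlapped for both. In SB341 the cap had a median of 2279 in megakaryocyte/erythroid-gated and 1867 in lymphoid-gated cells, and in SB343 of 2528 and 1830. By part of the cap, the medians of the log2 difference were 0.52 for the ATPases, 0.46 for the base scaffold and receptor genes, 0.36 for the lid and 0.97 for the assembly factors. Over libraries the differences ran from -0.88 to 1.35, -0.73 to 1.19, -0.46 to 0.80 and -0.76 to 2.35, so the parts overlapped. The assembly factors had the lowest level, with medians of 192 CPM in megakaryocyte/erythroid-gated and 115 in lymphoid-gated cells.

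**Figure D4:**
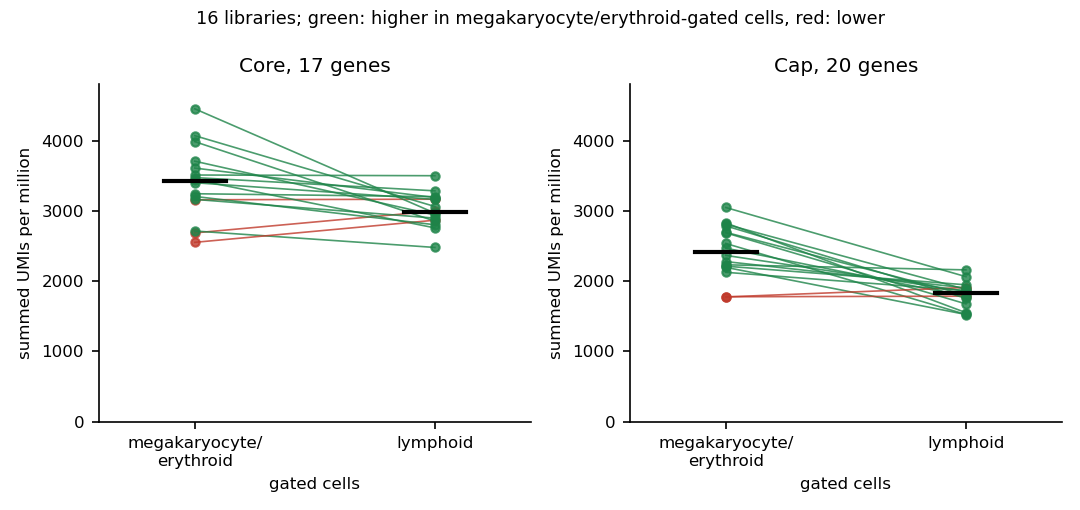
Summed CPM of the core genes (left) and cap genes (right) in megakaryocyte/erythroid-gated and lymphoid-gated cells of the same library, joined by lines, with black bars at the medians. The cap is lower in megakaryocyte/erythroid-gated cells in 2 of the 16 libraries and the core in 3, and the ranges overlap.

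In that comparison 4 of 30 tested members were called higher and 0 lower, where 6.7% and 12.9% of 2581 genes were, and 23 lay above 0, where 49.6% of all genes did. All 4 were cap genes, of 16 cap genes tested, and none was among the 14 core genes tested; whether core and cap differ was not tested. Psmc2, an ATPase of the base, had 77.3, 153 and 379 CPM in megakaryocyte/erythroid-gated cells, against 50.3, 94.7 and 197 in lymphoid-gated cells. The groups overlapped, and it was higher in 12 of 16 libraries, with a log2 fold change of 0.75 ± 0.21 (SE) and an edgeR adjusted p of 0.00590. Psmc3, another ATPase, had 65.1, 169 and 509 CPM, against 45.8, 111 and 232, also higher in 12 of 16. Its log2 fold change was 0.58 ± 0.20 with an adjusted p of 0.0280. Psmd5, an assembly factor, had 36.3, 104 and 195 CPM, against 19.3, 54.7 and 113, and was higher in 14 of 16 libraries, at 0.80 ± 0.28 and an adjusted p of 0.0333. The fourth was the lid subunit Psmd3, outside the rule for named genes and named after its value was seen, at 0.95 ± 0.36 and 0.0497. Psmd1, the base scaffold, missed the threshold at 0.54 ± 0.21 and 0.0572.

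In the GENCODE M21 annotation (GRCm38, the build mm10) Psmc2 lies at chr5:21785283-21803787, Psmc3 at chr2:91054009-91066369, Psmd5 at chr2:34849734-34874968 and Psmd3 at chr11:98682554-98695979. These calls rest on few molecules, 64 to 170 UMIs of each of the 4 genes in 311 cells, and on all libraries together. Within a batch Psmc2 had log2 fold changes of 0.80 in SB341 and 0.62 in SB343 with adjusted p of 0.0901 and 0.214, and Psmc3 0.63 and 0.49 with 0.187 and 0.277. Psmd5 had 0.94 in SB341 with 0.183. In all, 0 members were called within SB341 and 1 within SB343. Leaving out single libraries kept Psmc2 called, with adjusted p up to 0.0296. Psmc3 lost its call without LSK library 4, 8 or 11, at log2 fold changes of 0.53, 0.43 and 0.48. Under the other settings it was called in 2 of 9, and its log2 fold change was 0.15 with an adjusted p of 0.805 under the stricter gate and 0.24 with 0.709 in cells of 1000 to 4000 UMIs. Psmc2 was called in 5 of 9, Psmd5 in 4 of 7 and Psmd3 in 3 of 4 of the other settings that tested them. Psmd5 lost it without library 4, 6, 7, 8, 10, 12, 15 or 16, at adjusted p of 0.0506 to 0.0830, and Psmd3 without library 1, 3, 7, 8, 11, 12 or 14, at 0.0521 to 0.115. Beside the members, other measures differed in the same comparison. The mitotic list had 4035 CPM in megakaryocyte/erythroid-gated and 3655 in lymphoid-gated cells, the 4 haemoglobin genes 258 and 71.5, the mitochondrial share was 9.46% and 10.3%, and the median depth 2122 and 1988 UMIs. Haemoglobin ran from 0 to 2861 CPM over libraries in the megakaryocyte/erythroid gate and from 13 to 150 in the lymphoid gate. The sort markers Kit and Ly6a had 262 and 446 CPM in sum, the granule list 348 and 624, and the monocyte and dendritic list, which holds MHC class II genes, 162 and 441. Their part in the result was not tested.

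Of the inducible genes, Psmb9 and Psmb8 were called lower in the same comparison and Psmb10 did not pass the test. Psmb9 had 115, 154 and 351 CPM in megakaryocyte/erythroid-gated cells, against 135, 216 and 321 in lymphoid-gated cells, and was lower in 10 of 16 libraries. Its log2 fold change was -0.50 ± 0.17 (SE) with an edgeR adjusted p of 0.0268. Psmb8 had 197, 385 and 929 CPM, against 337, 482 and 688, lower in 11 of 16, at -0.33 ± 0.12 and 0.0419. For both genes the ranges overlapped. The inducible Psmb10, a member, had a log2 fold change of 0.44 ± 0.20 and an adjusted p of 0.120. The 3 together were higher in 6 of 16 libraries, with a median log2 difference of -0.14. Psmb9 lost its call without LSK library 1, 7, 11 or 15, at log2 fold changes of -0.40 to -0.45, and Psmb8 without library 1, 2, 4, 5, 7, 11, 12 or 14, at -0.27 to -0.34. Under the other settings run Psmb9 kept its call in 4 of 9, with adjusted p up to 0.351, and Psmb8 in 1 of 10, with a log2 fold change of -0.047 and an adjusted p of 0.964 in cells thinned to 500 UMIs. Psmb8 made up 78.8% of its pair with Psmb5 in megakaryocyte/erythroid-gated cells (74.8% to 82.3%) and 86.4% in lymphoid-gated cells (84.2% to 88.2%), Psmb9 40.9% (36.0% to 46.1%) and 54.6% (51.2% to 58.0%) of its pair with Psmb6. Among the 20 tested genes of the pathway list 0 were higher and 3 lower, Psmb8 and Psmb9 among them, where 6.7% and 12.9% of all 2581 tested genes were. The count of lower genes is thus near the share over all genes.

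Cells rich in mitotic transcripts were set against cells with none among 1000 of their UMIs, in 16 libraries, each cell being thinned to 1000 UMIs for the gate. The 1402 mitotic-gated cells had at least 3 UMIs of 24 mitotic genes such as Top2a, Ccnb1 and Plk1, and 1278 cells had none. Before thinning the 24 genes had 5899 CPM in mitotic-gated cells and 316 in the cells without a mitotic UMI, so these too held some, and the gate does not show that a cell was in mitosis. The cap had 1779, 1945 and 2347 CPM in mitotic-gated cells, against 1523, 1803 and 2208 in cells without a mitotic UMI, higher in 14 of 16 libraries by a median of 0.14 on the log2 scale. The core had 2813, 3141 and 3541 CPM, against 2481, 3048 and 3511, higher in 11 of 16 by 0.03. Of the parts of the cap, the 6 ATPases together were higher in 15 of 16 libraries by a median of 0.19. Of the parts of the core, the 3 beta genes with active sites together were higher in 13 of 16 by 0.20, the alpha genes in 9 by 0.04 and the other beta genes in 6 by -0.04. The ranges overlapped in each case.

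Among 34 tested members 1 was called higher and 0 lower in mitotic-gated cells, where 5.74% and 5.99% of 6362 genes were. The gene was Psmc6, an ATPase of the base (chr14:45329788-45349705), with 108, 162 and 245 CPM in mitotic-gated cells, against 77.5, 121 and 222 in cells without a mitotic UMI. It was higher in 14 of 16 libraries, with a log2 fold change of 0.40 ± 0.12 (SE) and an edgeR adjusted p of 0.0111, and DESeq2 gave 0.0412. The call held with each library left out in turn, with adjusted p up to 0.0365. Within SB341 and SB343 the log2 fold changes were 0.42 and 0.39 with adjusted p of 0.0971 and 0.240. The catalytic Psmb6 lay just outside the threshold at 0.26 ± 0.09 and 0.0503, as did Psmb1 at -0.19 ± 0.07 and 0.0508, with 237 and 368 CPM in median in mitotic-gated cells, against 181 and 406 in the others. For 31 of the 34 members the 95% interval stayed within 1.5-fold in either direction. Their median log2 fold change was 0.03, beside -0.02 over all tested genes, and 20 lay above 0, where 46.8% of all genes did. Mitotic-gated cells had a median of 2480 UMIs and cells without a mitotic UMI 1652; with each cell thinned to 500 UMIs the log2 fold change of Psmc6 was 0.37 and the adjusted p 0.262.

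**Figure D5:**
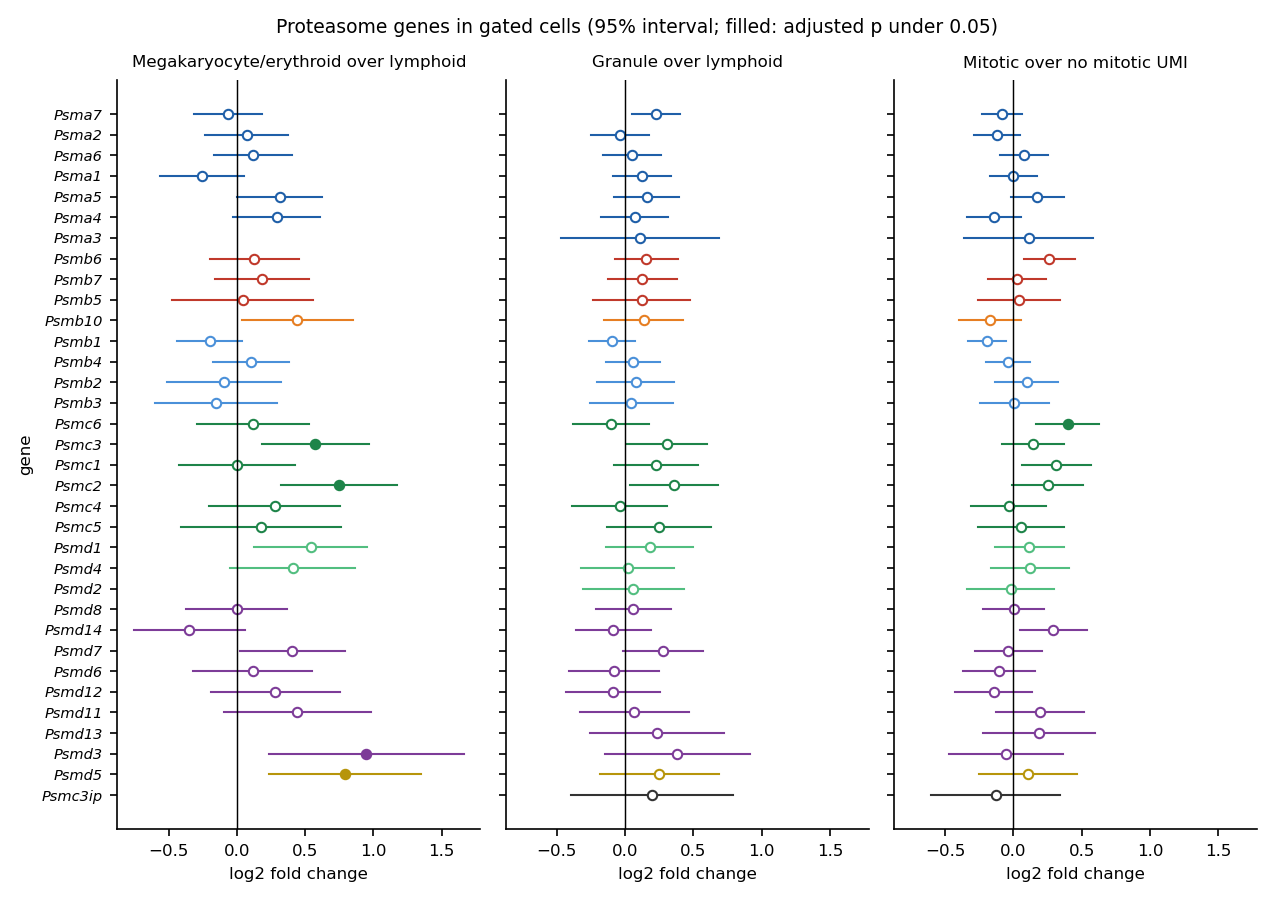
Log2 fold changes of each tested proteasome gene with 95% intervals, for megakaryocyte/erythroid-gated over lymphoid-gated, granule-gated over lymphoid-gated and mitotic-gated over cells without a mitotic UMI, coloured by role in the order of the plot of levels. Filled points passed an edgeR adjusted p of 0.05: Psmc2, Psmc3, Psmd3 and Psmd5 in the left panel, none in the middle and Psmc6 on the right.

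Ubb, a polyubiquitin gene, rose in mitotic-gated cells. Of 31 tested genes of the pathway list 2 were called higher and 2 lower, where 5.74% and 5.99% of all 6362 tested genes were. Both counts are thus near the share over all genes. Ubb had 611, 1352 and 1562 CPM in mitotic-gated cells, against 461, 853 and 1074 in cells without a mitotic UMI. It was higher in 16 of 16 libraries, with a log2 fold change of 0.56 ± 0.04 (SE) and an edgeR adjusted p of 2.67e-25, and within SB341 and SB343 the changes were 0.57 and 0.49. Sem1, a small lid protein, had 208, 333 and 441 CPM in mitotic-gated cells, against 287, 367 and 542 in cells without a mitotic UMI, lower in 12 of 16, with a log2 fold change of -0.24 ± 0.07 and an adjusted p of 0.0117, and 0.0541 without LSK library 2. Nfe2l2, a transcription factor of the stress response, had 13.8, 37.9 and 86.6 CPM, against 17.8, 59.9 and 102, lower in 14 of 16, at -0.62 ± 0.20 and 0.0211. It lost the call without LSK library 3, 8 or 9, at -0.58, -0.56 and -0.56, and its log2 fold change was -0.93 in SB341 and -0.10 in SB343. The groups overlapped for these 3 genes. Under the other settings run, Ubb was called in 9 of 9, Sem1 in 4 of 9 and Nfe2l2 in 3 of 8.

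The promoters of Psmc2, Psmd5 and Psmc6 are printed because these genes are among those called above, chosen after their values were seen; the promoter of Psmc3 is not printed. They run from 250 bases before to 50 after the start listed by RefSeq (GRCm38.p6). They lie at chr5:21785025-21785324 on the plus strand, chr2:34870913-34871212 on the minus strand and chr14:45329574-45329873 on the plus strand. Capitals mark matches on either strand to 4 motifs searched: TGACNNNGC (the core of an antioxidant response element), the CCAAT box, the ETS-type site CGGAAG and the E-box CACGTG.
Psmc2: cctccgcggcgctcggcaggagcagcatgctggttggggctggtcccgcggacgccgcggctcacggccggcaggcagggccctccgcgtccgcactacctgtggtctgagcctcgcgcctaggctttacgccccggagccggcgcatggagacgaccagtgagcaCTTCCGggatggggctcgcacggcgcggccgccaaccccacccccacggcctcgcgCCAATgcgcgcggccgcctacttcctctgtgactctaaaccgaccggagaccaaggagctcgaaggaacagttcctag
Psmd5: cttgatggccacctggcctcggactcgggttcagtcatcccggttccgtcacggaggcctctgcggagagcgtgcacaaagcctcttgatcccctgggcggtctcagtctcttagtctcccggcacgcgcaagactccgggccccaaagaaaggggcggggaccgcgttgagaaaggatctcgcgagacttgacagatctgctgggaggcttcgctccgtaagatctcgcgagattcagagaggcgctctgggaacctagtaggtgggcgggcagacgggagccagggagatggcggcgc
Psmc6: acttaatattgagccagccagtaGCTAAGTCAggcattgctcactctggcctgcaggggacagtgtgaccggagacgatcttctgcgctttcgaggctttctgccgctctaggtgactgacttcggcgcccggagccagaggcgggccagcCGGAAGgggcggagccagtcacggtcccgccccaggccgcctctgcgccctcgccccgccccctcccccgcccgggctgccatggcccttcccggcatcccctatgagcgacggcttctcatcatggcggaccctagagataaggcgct
Psmc2 had a CCAAT starting 28 bases before the start and a CGGAAG on the other strand from 84 bases before it. Psmc6 had a TGACNNNGC on the other strand from 227 bases before and a CGGAAG from 99 bases before the start. Psmd5 matched none of the 4 in its window, which is set on the RefSeq start. The GENCODE M21 span of Psmd5 starts, on the minus strand, at chr2:34874968, outside that window. The table held promoters of 31 of the 38 members, 33 promoters in all, of which 60.6% held a CGGAAG, beside 16.9% of all 32851 promoters. CCAAT was in 39.4% of the members' promoters and 37.4% of all, TGACNNNGC in 15.2% and 12.4%, and CACGTG in 9.09% and 7.15%. TGACNNNGC was in Psmb5, Psmb6, Psmc6, Psmd9 and Psmd12. The promoters of all genes were not matched to those of the members for expression level or base composition. The shares therefore do not show that a motif is particular to proteasome genes. Psmc3ip, which is no subunit, and the thymus form Psmb11 were counted among the members, and both held the ETS-type site. The motifs were chosen for known promoter classes after the lists were made, and a match is a run of letters, not a shown binding site.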

How the data were processed

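Single-cell RNA of 16 LSK libraries of 384 wells was used. The authors deposited whole-number UMI counts per gene and well, not normalized, and a table of wells, per the file headers. The submitters' processing notes name bcl2fastq 2.15.0.4 and the build mm10. How reads were aligned and counted, with which annotation and with or without strand, is not given in the sources used. Spike-in rows were left out.

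Levels are CPM over the kept cells of a library, given as lowest, median and highest. The members, gene lists and gates were chosen with earlier results of these data known. UMI sums per library and gate (at least 10 cells) were compared with edgeR 4.0.16 in R 4.3.3: TMM, filterByExpr with a minimum count of 10, glmQLFit and the quasi-likelihood F test with library as a block, since both sums of a pair come from the same plate. Adjustment was by Benjamini and Hochberg over all tested genes, with calls at 0.05. Gate genes entered the sums but were not tested. On simulated data the model called 23.9% of 1.5-fold and 76.1% of 2-fold changes in the granule/lymphoid comparison (4649 genes), 11.9% and 65.7% in the mitotic one (6159 genes), and 26.9% and 64.2% in the megakaryocyte/erythroid against lymphoid one (2423 genes). Simulated counts had the same dispersion for every gene and no differences between libraries beyond their totals. Changed genes were drawn at random from the tested ones, so these rates need not hold for the members. Full statistics are given for up to 3 members called higher and 3 called lower per comparison, per-library values for the 3 most abundant core and cap genes, and up to 4 called genes of the pathway list, of which some are not reported here. Near-identical entries were searched with BLAST+ 2.17.0 in the last 500 bases of GENCODE M21 transcripts. Alternatives were RLE factors, DESeq2 1.42.0, no filter, no library block, other depth, gate and mitochondrial limits, single batches and each library left out. Doublets were not called, since the well table gives no well more than 1 cell. UMI totals limit precision. Wilson intervals cover counting error only, and intervals of fold changes come from the edgeR fit.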

Additional observations from a re-analysis of the deposited data

How the results depend on the processing

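The core median was 3306 CPM with a mitochondrial maximum of 10%, 4158 without mitochondrial and ribosomal protein entries in the total and 3339 within SB343, and the cap median was 2048, 2521 and 2097 under the same settings; other settings moved them by less than 1 SD over libraries. Without the filter on low counts, 3 members were called higher in granule-gated against stem-gated cells, 4 in lymphoid-gated against stem-gated cells and 0 in megakaryocyte/erythroid-gated against lymphoid-gated cells; the median of all genes then moved by 0.45, 0.49 and -0.23 on the log2 scale. In mitotic-gated cells 2 members were called higher with RLE size factors, with no filter and in cells of 1000 to 4000 UMIs, and 0 with cells thinned to 500 UMIs and within each of SB341 and SB343. With single libraries left out it was 1 to 2 members higher and 0 to 1 lower. In megakaryocyte/erythroid-gated against lymphoid-gated cells 2 members were called higher in cells of at least 1000 UMIs, 0 in cells of 1000 to 4000 UMIs, 0 with cells thinned to 500 UMIs, 0 within SB341 and 1 within SB343, and 2 to 5 with single libraries left out. Fitting without the replicate block left 3 members called higher there, 1 in mitotic-gated cells and 0 in the other 4 comparisons. No called gene changed its direction under any setting run. The stricter gate left too few stem-gated cells for a comparison, cells thinned to 500 UMIs left no member to test against stem-gated cells, and the limit of under 2 mitotic UMIs gave no fit for the megakaryocyte/erythroid comparisons. The cause of each change was not tested, beyond the fewer cells, libraries and genes that thinning, depth limits and single batches leave.

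Depth limits the stem-gated, monocyte and dendritic-gated and megakaryocyte/erythroid-gated sums, at 189, 209 and 311 cells. No genotype is known for any cell, so none of the differences bears on the loss of Regnase-1 and Regnase-3.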

Other observations

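LSK libraries 1 to 8 had core levels of 2835 to 3027 CPM and LSK libraries 9 to 16 of 3088 to 3451, without overlap, where the change of sequencing batch lies between libraries 10 and 11. These libraries are in a single labelled group and the split was seen in the values, so no test was made.

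Psmb6-ps2, a pseudogene entry kept out by its symbol, had 182 UMIs, at 12.1 to 40.7 CPM in SB341 and 3.16 to 10.5 in SB343, while its parent gene Psmb6 had 173 to 228 CPM in SB341 and 198 to 265 in SB343.

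Psma8, the testis form of an alpha subunit, had 12 of its 65 UMIs in LSK library 13, at 21.0 CPM, and 0 in LSK libraries 1, 4 and 7.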
